A study of Arabidopsis thaliana with 3 samples.

Results

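The genes described here are 10 loci of the cell cycle machinery in Arabidopsis thaliana, given as a list of names. No measured value enters the rule, but the list was drawn up with earlier results of these data known. They are the D cyclins CYCD3;1 (AT4G34160) and CYCD4;1 (AT5G65420), the A cyclin CYCA2;3 (AT1G15570), the B cyclins CYCB1;1 (AT4G37490) and CYCB1;2 (AT5G06150), the kinases CDKA;1 (AT3G48750), CDKB1;1 (AT3G54180), CDKB2;1 (AT1G76540) and CDKB2;2 (AT1G20930), and KNOLLE (AT1G08560), a syntaxin of dividing cells. Apart from KNOLLE they are called by their TAIR locus from here on. They are 10 of the 27444 protein-coding nuclear genes in the RefSeq annotation of TAIR10.1, which gives each listed name as the symbol or a synonym of its locus. Open chromatin was mapped by ATAC-seq. In this assay a transposase, Tn5, cuts the DNA where it is accessible and joins sequencing adapters to the ends. The 3 libraries form 1 group with no treatment and no control. The study calls them biological repeats and made them from unequal numbers of nuclei, fewest for library 1 and most for library 3. All came from roots of 14-day-old Col-0 seedlings that express INTACT, a tag on the nuclear envelope through which nuclei are captured on streptavidin. The tag is driven by the constitutive 35S promoter, so the nuclei were not selected for a root cell type or for division. An accessible region open in few nuclei therefore cannot be told apart from one weakly open in many.

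Cyclin-dependent kinases drive the cell cycle and are active only when bound to a cyclin. D cyclins act with the A-type kinase, AT3G48750, at the entry into the cycle, where they release E2F factors from the retinoblastoma protein RBR1, and A and B cyclins and the plant-specific B-type kinases act later, toward mitosis. Many genes of the G2 and M phases carry mitosis-specific activator (MSA) elements, which are bound by MYB3R proteins. In roots, division is mostly limited to the meristem at the tip and to cells that form lateral roots.

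The 250 bases before the annotated start are shown for the 4 genes on which the results turn and which do not overlap a neighbouring gene there: both B cyclins, with the most MSA cores, and AT1G20930 and KNOLLE, with the highest upstream signal. They were read from the TAIR10.1 genome on the strand of the gene, 5′ to 3′, and capitals mark the MSA core, AACGG or its reverse complement CCGTT.
AT4G37490 (chr4:17624309-17624558, minus strand): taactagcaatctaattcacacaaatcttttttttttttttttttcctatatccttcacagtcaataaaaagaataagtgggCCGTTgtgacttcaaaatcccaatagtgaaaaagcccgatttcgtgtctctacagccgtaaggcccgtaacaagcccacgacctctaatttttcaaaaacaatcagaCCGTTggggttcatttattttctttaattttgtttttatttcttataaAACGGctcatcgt
AT5G06150 (chr5:1861704-1861953, minus strand): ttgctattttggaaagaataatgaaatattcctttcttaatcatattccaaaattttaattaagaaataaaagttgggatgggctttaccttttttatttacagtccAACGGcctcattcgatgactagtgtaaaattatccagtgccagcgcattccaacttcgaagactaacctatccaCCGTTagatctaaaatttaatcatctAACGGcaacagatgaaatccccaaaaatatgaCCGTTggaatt
AT1G20930 (chr1:7294747-7294996, minus strand): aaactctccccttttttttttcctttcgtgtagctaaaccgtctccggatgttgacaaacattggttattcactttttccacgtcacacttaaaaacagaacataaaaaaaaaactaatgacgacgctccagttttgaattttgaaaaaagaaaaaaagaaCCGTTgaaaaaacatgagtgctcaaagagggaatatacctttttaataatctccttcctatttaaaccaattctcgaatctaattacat
KNOLLE (chr1:2711001-2711250, minus strand): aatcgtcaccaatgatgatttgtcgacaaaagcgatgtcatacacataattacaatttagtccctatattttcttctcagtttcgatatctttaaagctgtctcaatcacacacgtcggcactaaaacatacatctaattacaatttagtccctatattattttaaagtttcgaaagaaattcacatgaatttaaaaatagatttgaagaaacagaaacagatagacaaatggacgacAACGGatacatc
For contrast, AT3G54180 starts 87 bp past the end of another gene, and the bases in between, without any MSA core, are these.
AT3G54180 (chr3:20059584-20059670, plus strand): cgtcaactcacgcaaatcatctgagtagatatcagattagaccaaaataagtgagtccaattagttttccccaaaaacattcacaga

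MSA cores were counted on both strands from 250 bp before to 50 bp after each start. AT5G06150 held 5, AT4G37490 and KNOLLE held 3 each, AT4G34160 and AT1G20930 held 1 each, and the other 5 genes held none. The core is short, and 24.7% of 27438 promoters of this length held at least 1, but only 1.06% held 3 or more. The longer MSA form, TCTAACGG or TCCAACGG, contains the core and was present in 1.72% of promoters. AT5G06150 was the only one of the 10 genes to hold it in this stretch, in 4 copies. E2F sites (TTTCCCGC, TTTGGCGC, TTTGCCGC or TTTCGCGC, in 1.76% of promoters), the telo box AAACCCTA (6.22%) and the G-box CACGTG (7.68%) were in none of these 10 promoters. Site II elements, TGGGCC or TGGGCT, were in 21.7% of promoters and in those of AT4G37490, AT5G06150 and AT4G34160. Accessible sites outside these promoters, described below, held further matches. The longer MSA form was in a far upstream site of KNOLLE that lies over the 5′ UTR of the neighbouring gene ACHT4. An E2F site was in the site past the end of AT5G65420. A G-box was in a far upstream site of AT1G15570 and in another of KNOLLE, which also lies nearer to the start of ACHT4. For these, no share over all sites is given. All are matches of letters and were not tested as binding sites.

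The depth was an estimated 9850039, 10223285 and 18130442 reads in libraries 1, 2 and 3, with 26404, 36033 and 34828 accessible sites, the peaks that the authors called in each library with MACS2. Signal is the mean read count over windows of 100 bp in a region, divided by the mean of that library over the nuclear genome, so that 1 is the genome mean. As a check of the tissue, 6 of 9 root genes and 2 of 6 genes of shoots and flowers had a site of every library at or near the gene, beside 64.2% of all protein-coding genes. Only the root gene GL2 among these 15 had one within 400 bp upstream of its start, but the flower gene AP1 had the highest signal there, 2.03 times the library mean beside 1.96 at GL2. These markers thus do not settle the tissue, and accessibility is not expression.

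The genes differed widely from each other. From 1 to 400 bp upstream of the start, the mean signal ranged from 0.486 times the library mean at AT5G65420 to 2.55 at KNOLLE. The median over the 10 genes was 1.06, 1.32 and 1.07 in libraries 1, 2 and 3, a mean of 1.15 ± 0.148 (SD, n = 3). Over all protein-coding genes it was 1.27, 1.49 and 1.28, a mean of 1.34 ± 0.125. Ranked among all protein-coding genes in each library, the median gene of the 10 stood at percentile 39.6, 43.8 and 39.0. Only KNOLLE and AT1G20930 had a site of every library in this region, 2 of 10 genes beside 33.5% of all protein-coding genes. Within the wider span from 2000 bp upstream to 500 bp past the gene end it was 6 of 10, close to the 64.2% of all protein-coding genes. These 6 were AT4G34160, AT5G65420, AT1G15570, AT3G48750, AT1G20930 and KNOLLE.

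**Figure D1:**
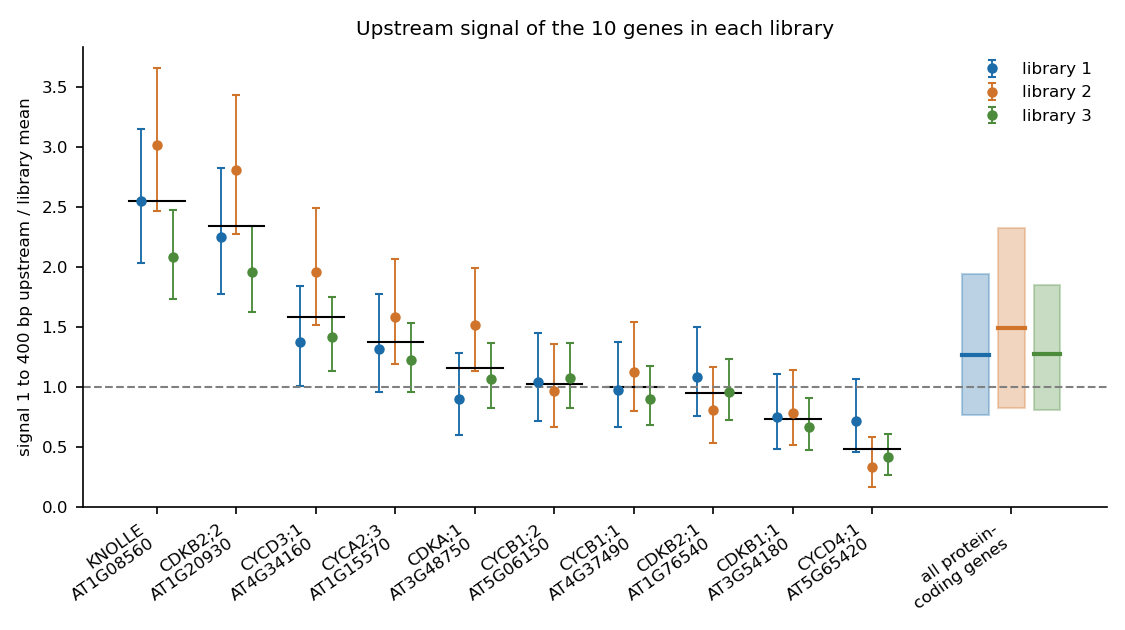
Signal from 1 to 400 bp upstream of the start, as a multiple of the library mean, for each gene and library, with 95% Poisson intervals for counting error and a black line at the mean of the 3 libraries. Boxes on the right give the median and the quartiles of all protein-coding genes in each library. KNOLLE and AT1G20930 lie highest in all 3 libraries and AT5G65420 lies lowest.

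AT4G34160 (chr4:16357421-16359565), a D cyclin known to respond to cytokinin, had the highest signal of the 5 cyclins in the 400 bp upstream. It was 1.37, 1.96 and 1.42 times the mean in libraries 1, 2 and 3, or 1.58 ± 0.326 (SD, n = 3), at percentile 59.0 of protein-coding genes. All 3 libraries were above the genome mean, and library 2 was the highest. The signal was higher farther upstream, at 2.86, 2.80 and 2.44 from 400 to 1000 bp, where a site of every library lay at chr4:16356500-16356798 with its summit 771 bp before the start. This upstream DNA is not intergenic. The neighbouring gene AT4G34150 runs in the same direction, overlaps the first 40 bp of AT4G34160 and covers all 2000 bp before it, and the summit lies in its coding exon. The site has 54.2% GC, the highest of all sites at the 10 genes, and the part of base composition in its signal was not tested.

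The strongest site of AT4G34160 lay at the other end of the gene. It was found in every library at chr4:16359351-16359690, with its summit in the 3′ UTR, 2020 bp past the start. Its fold enrichment by MACS2 was 4.30, 4.19 and 3.23, and its signal was 3.79, 4.37 and 3.22 times the library mean. This value exceeded that of the upstream site in each library. The gene past its first 400 bp, which includes part of this site, had 1.83, 1.71 and 1.74 times the mean, or 1.76 ± 0.0620 (SD, n = 3), at percentile 93.0 of protein-coding genes. Up to the start of the site it had 1.51, 1.31 and 1.52, or 1.45 ± 0.118. AT4G34160 was the only one of the 10 with a site of every library in that part, beside 12.9% of protein-coding genes longer than 400 bp.

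AT5G65420 (CYCD4;1, chr5:26141470-26144020), a D cyclin linked to divisions of the pericycle in roots, had the lowest upstream signal of the 10 in every library. The values were 0.713, 0.331 and 0.414 times the mean in libraries 1, 2 and 3, or 0.486 ± 0.201 (SD, n = 3), at percentile 11.7. Relative to its mean, the libraries differed more than at any of the other 9 genes, and counts were few: library 2 had an estimated 11.4 reads there and a 95% Poisson interval of 0.167 to 0.587. Its only site lay past the gene end, at chr5:26140923-26141335, and was found in all 3 libraries with a fold enrichment of 4.03, 4.81 and 3.53. The 500 bp past the end had 2.21, 2.39 and 2.01 times the mean in libraries 1, 2 and 3, beside a median of 1.07 ± 0.0248 over all protein-coding genes. The ratio of AT4G34160 to AT5G65420 in the upstream region was 1.93, 5.92 and 3.42, above 1 in 3 of 3 libraries, with a mean of 3.76 ± 2.02. It compares unlike DNA, since the region of AT4G34160 lies wholly within AT4G34150 and no annotated gene overlaps that of AT5G65420.

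AT1G15570 (chr1:5361865-5365559), an A cyclin that restrains endoreduplication together with AT3G54180, was open mostly at a distance. From 1 to 400 bp upstream it had 1.32, 1.58 and 1.22 times the mean, or 1.37 ± 0.187 (SD, n = 3), near the middle of all protein-coding genes at percentile 50.7. From 1000 to 2000 bp upstream it had 2.01, 2.05 and 1.72, beside a median of 1.01 ± 0.0528 over all protein-coding genes. A site of 611 bp, the widest at the 10 genes, lay there in every library at chr1:5360177-5360787. Its fold enrichment was 4.03, 3.91 and 3.17, and no annotated gene lies at its summit. Nearer sites were called in fewer libraries. One 895 bp upstream was found in libraries 2 and 3, with the fold enrichment of the far site in library 2, and one 31 bp upstream only in library 2, although the signal over it was above the genome mean in all libraries (1.44, 2.07 and 1.36).

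The B cyclins AT4G37490 (chr4:17621886-17624308) and AT5G06150 (chr5:1859279-1861703) act at the entry into mitosis, and AT4G37490 is widely used as a marker of cells in G2 and M. AT4G37490 had 0.974, 1.13 and 0.903 times the mean upstream of its start, or 1.00 ± 0.114 (SD, n = 3), and no site in any library over its whole span. AT5G06150 had 1.04, 0.970 and 1.07, or 1.03 ± 0.0513. Both lay at the genome mean and below the median protein-coding gene, at percentiles 33.9 and 36.0. Their order changed between libraries, and the ratio of AT4G37490 to AT5G06150 was 0.940, 1.16 and 0.844 and was above 1 in 1 of 3 libraries.

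Averaging over 400 bp hides a narrow rise at both B cyclins. Between 1000 bp upstream and 400 bp downstream, the highest single window of AT4G37490 lay at -75, -100 and -100 bp from the start in libraries 1, 2 and 3 and reached 1.70, 2.06 and 1.59 times the mean. At AT5G06150 it lay at -175, -75 and -75 bp and reached 1.47, 1.76 and 1.80. A highest window exceeds the mean of its region at any gene. At the kinase genes AT3G54180 and AT1G76540, which have no site, it reached 1.70, 1.32 and 1.26 and 1.70, 1.32 and 1.55. Library 1 was thus as high there as at AT4G37490, and libraries 2 and 3 were lower than at either B cyclin. Its place varied more, at -25, -100 and -550 bp and at -375, 175 and -400 bp. No share over all genes is given. The rise of AT5G06150 was called a site only in library 3, the most deeply sequenced, at chr5:1861673-1861861 with a fold enrichment of 2.27. That site runs from 158 bp before to 30 bp after the start and holds all 5 MSA cores of the gene, of which the 4 printed above are in the longer form. Over its 5 cores the mean signal ran from 1.27 to 1.63 times the library mean, highest at the core 69 bp upstream with 1.31, 1.76 and 1.80 in libraries 1, 2 and 3. Over the 3 cores of AT4G37490 it ran from 1.20 to 1.69, highest at the core 61 bp upstream with 1.70, 1.91 and 1.47. The 2 cores of AT5G06150 nearest to its start share a window, in which library 1 was below the genome mean at 0.694. Each core value is that of a single window of 100 bp and cannot resolve cores this close. These windows belong to the same profiles as the rise, so the core values are not separate evidence. Past its first 400 bp, AT5G06150 had the lowest signal of the 10 gene bodies, 0.575, 0.285 and 0.593 times the mean, at percentile 6.75. Here 91.8% of stretches of 61 bases, the read length, occur once in the genome. Reads from the others were discarded, which matters most from 1000 to 2000 bp upstream of AT4G37490, where 54.7% are unique and the signal was 0.104, 0.176 and 0.143.

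**Figure D2:**
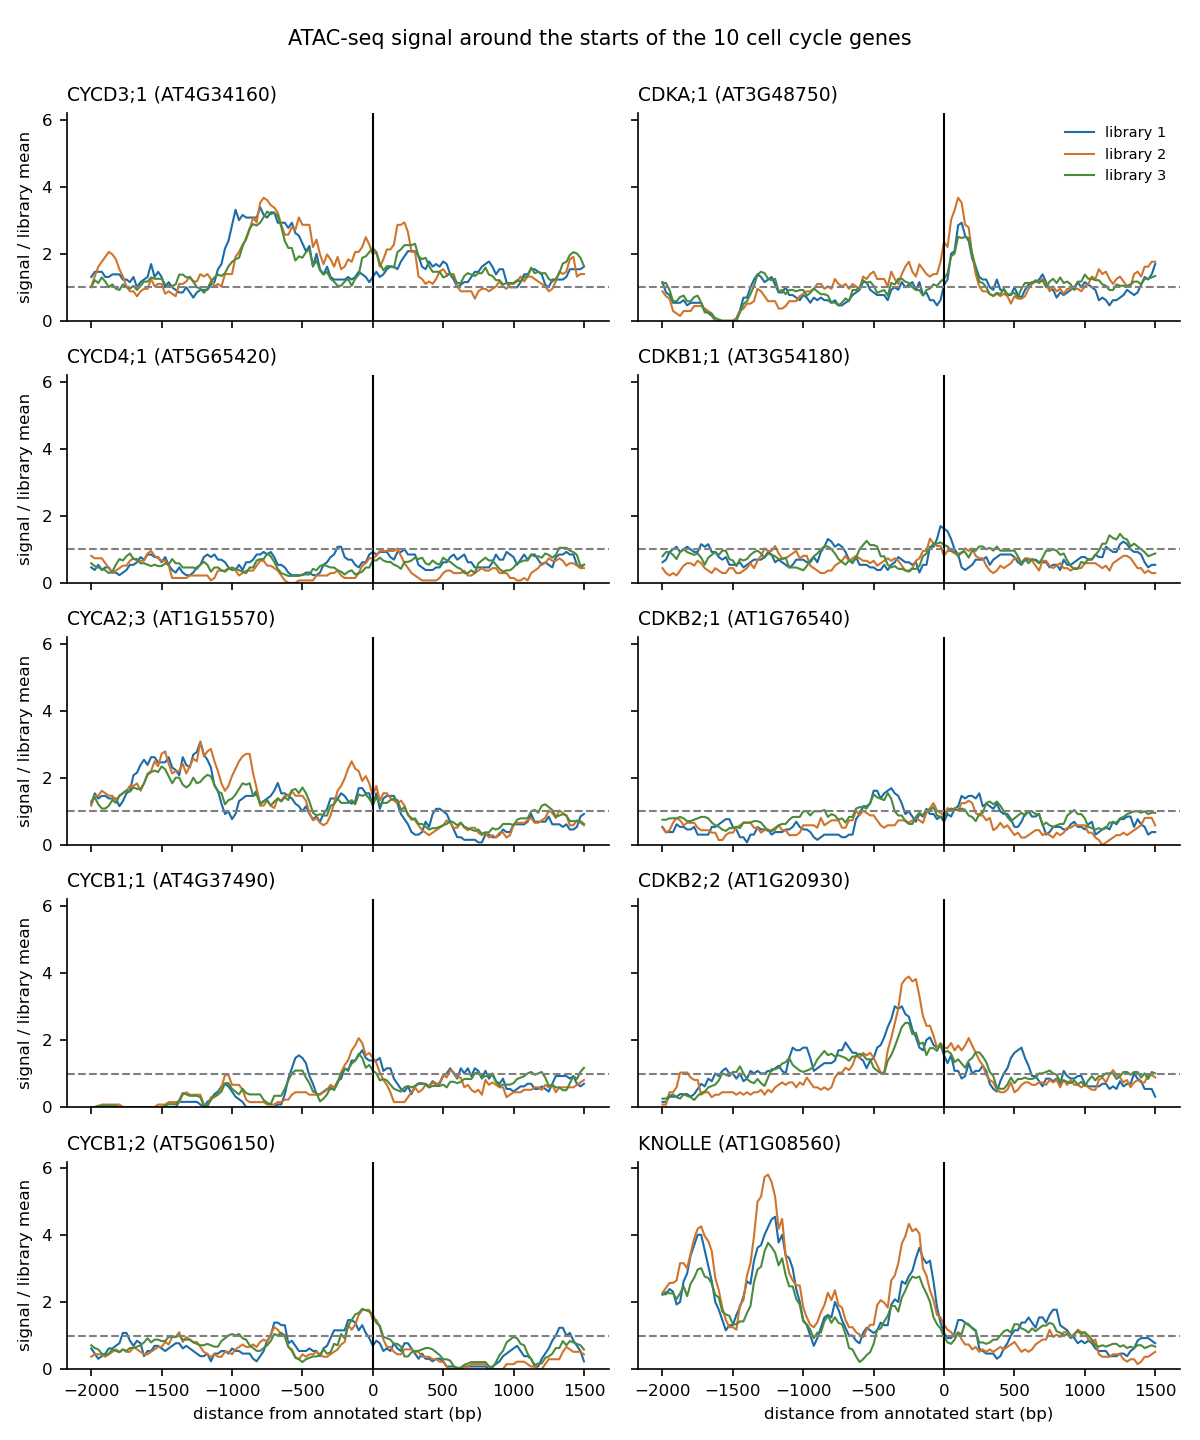
Read count in windows of 100 bp, as a multiple of the library mean (dashed line at 1), from 2000 bp upstream to 1500 bp downstream of the annotated start (vertical line) of each gene, with 1 line per library. The B cyclins show a low rise just before the start, AT1G20930 and KNOLLE show higher ones, AT3G48750 rises just after its start, and AT5G65420 stays near or below 1. Windows at 0 upstream of AT4G37490 and AT3G48750 lie where part of the sequence is repeated in the genome.

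AT3G48750 (CDKA;1, chr3:18071454-18074641), the A-type kinase that acts throughout the cycle, was open just downstream of its start. The first 400 transcribed bases had 1.71, 1.92 and 1.59 times the mean, or 1.74 ± 0.166 (SD, n = 3), at percentile 71.7. The 400 bp upstream had 0.897, 1.52 and 1.07, at percentile 40.5. Library 1 was below the genome mean and library 2 well above it, so the upstream value was less settled than the downstream one. The highest window lay 125, 100 and 100 bp past the start and reached 2.93, 3.68 and 2.51 times the mean. A site of every library was called there, at chr3:18071499-18071668 in the 5′ UTR, with a fold enrichment of 4.02, 4.49 and 3.30. AT3G48750 was the only one of the 10 genes with a site of every library in the first 400 transcribed bases, beside 27.6% of protein-coding genes. A site past the gene end was found only in library 2, and there the signal was 1.27, 3.16 and 1.67. Its summit lies nearer to the start of AT3G48760, 878 bp away, than to that of AT3G48750.

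The B-type kinases are particular to plants and act at G2 and mitosis, and AT3G54180 also acts in divisions of the stomatal lineage. AT3G54180 (chr3:20059671-20061488) had 0.747, 0.781 and 0.668 times the mean upstream, or 0.732 ± 0.0584 (SD, n = 3), at percentile 21.7, and no site in any library. It was lower than AT3G48750 in 3 of 3 libraries, with a ratio of 0.833, 0.515 and 0.625. Of the 400 bp before its start, 78.2% lie within FIP37, which ends 87 bp before AT3G54180. AT1G76540 (CDKB2;1, chr1:28720328-28722550) had 1.08, 0.804 and 0.955, or 0.948 ± 0.140, at percentile 32.6, and likewise no site. Of its 400 upstream bp, 73.5% lie within AT1G76550.

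AT1G20930 (CDKB2;2, chr1:7292389-7294746) had the highest signal of the 4 kinases in the 400 bp upstream, whereas AT3G48750 was higher from the start onward. At AT1G20930 the upstream signal was 2.25, 2.81 and 1.96 times the mean in libraries 1, 2 and 3, or 2.34 ± 0.432 (SD, n = 3), at percentile 81.9. All 3 libraries lay above every library of AT1G76540. The encoded proteins are 87.3% identical over a global alignment, which says nothing of the upstream DNA. The upstream regions are unlike, since 73.5% of that of AT1G76540 lies within AT1G76550, whereas no annotated gene overlaps that of AT1G20930. The ratio of AT1G76540 to AT1G20930 was 0.482, 0.286 and 0.488, a mean of 0.419 ± 0.115. In the first 400 transcribed bases the same ratio was 1.20, 0.691 and 0.804, on both sides of 1. All stretches of 61 bases were unique in both upstream regions. A site of every library at chr1:7294754-7295181 ran from 435 to 8 bp before the start of AT1G20930, with a fold enrichment of 4.03, 4.81 and 3.09. It contains the single MSA core of the printed sequence, 89 bp upstream, which lies off the highest windows at -350, -250 and -275 bp. A site in the coding sequence 266 bp past the start was found in libraries 2 and 3, and one within the neighbouring gene AT1G20940 only in library 3.

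KNOLLE (chr1:2709525-2711000), the syntaxin that fuses vesicles into the growing cell plate, had the highest upstream signal of the 10 in every library. It was 2.55, 3.02 and 2.08 times the mean, or 2.55 ± 0.468 (SD, n = 3), at percentile 85.9. The 95% Poisson intervals were 2.03 to 3.15, 2.46 to 3.66 and 1.73 to 2.47, and those of libraries 2 and 3 only just overlapped. A site of every library at chr1:2711087-2711371 ran from 371 to 87 bp before the start, with a fold enrichment of 3.70, 4.29 and 2.48. Its −log10 q was lowest in library 3, at 4.79, so that a threshold of 5 removes it from that library. It ends before the 3 MSA cores of KNOLLE, which lie from 12 bp before to 40 bp after the start. The window over the upstream one had 1.08, 1.32 and 0.963 times the mean, and signal fell to 0.930, 0.786 and 0.969 in the first 400 transcribed bases.

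Farther upstream, KNOLLE faces ACHT4 (AT1G08570), a thioredoxin gene transcribed in the opposite direction from a start 1694 bp away. A strong site lay between them at chr1:2712021-2712403, with a fold enrichment of 4.52, 5.80 and 3.48, the highest at any of the 10 genes in libraries 1 and 2 and second to the site of AT5G65420 in library 3. Its signal was 3.43, 4.06 and 2.80 times the mean, and its summit is 449 bp from the start of ACHT4 and 1245 bp from that of KNOLLE. A further site of every library, at chr1:2712642-2712869, lies over the 5′ UTR of ACHT4, with its summit 35 bp past that start. The strong site holds the G-box named above and the further one the longer MSA form. Whether these sites act on either gene was not tested.

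**Figure D3:**
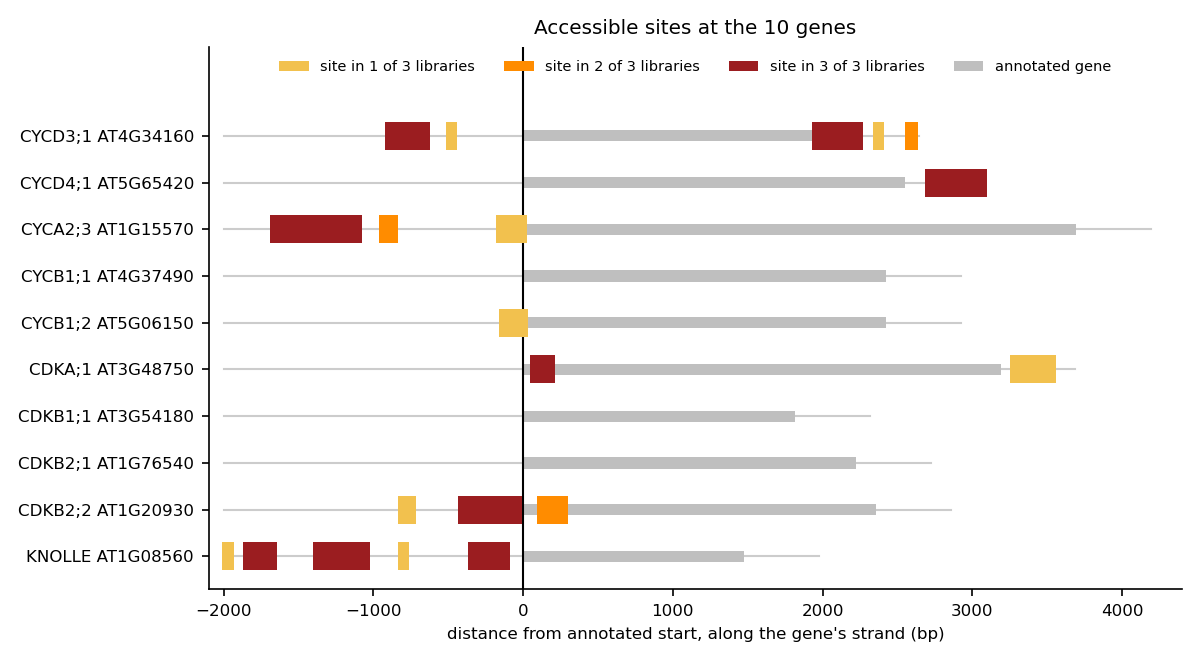
Accessible sites from 2000 bp upstream to 500 bp past the end of each gene, to scale along the gene's own strand, with the annotated gene in grey and the site colour giving the number of libraries that have it. AT4G37490, AT3G54180 and AT1G76540 have no site, AT5G06150 has 1 from library 3, and the 9 sites of all libraries lie at the other 6 genes.

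In all, the spans of the 10 genes held 11, 18 and 16 sites in libraries 1, 2 and 3, which merged into 20. Of these, 9 were found in 3 libraries, 3 in 2 and 8 in 1. The 45.0% in all libraries compare with 46.7% of the 43236 merged sites of the genome. Scored on the cell cycle gene alone, their summits lay upstream of the start in 13 cases and past the gene end in 4. They lay in its 5′ UTR, a coding exon and its 3′ UTR in 1 case each. Some upstream summits lie within a neighbouring gene: AT4G34150 at AT4G34160, AT1G20940 at AT1G20930, and ACHT4 at KNOLLE. At 16 of the 20 the nearest start of a protein-coding gene was that of the cell cycle gene itself, and the other 4 were nearer to ACHT4 (3 sites) or AT3G48760 (1 site). For fold enrichment, only the strongest site of a library within each merged site was kept at these genes. The median was then 4.02, 3.85 and 2.66 in libraries 1, 2 and 3, beside 3.07, 3.14 and 2.56 over all sites. Weaker sites were left out only at these genes, which can raise their median, so the values are not strictly comparable.

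Along the genes, the median over the 10 genes was below that over all protein-coding genes in every region, although single genes lay well above it. From 1000 to 2000 bp upstream the median of the 10 was 0.671 ± 0.105, beside 1.01 ± 0.0528 over all protein-coding genes, and from 400 to 1000 bp it was 0.855 ± 0.105 beside 1.12 ± 0.0186 (SD, n = 3 libraries). In the first 400 transcribed bases it was 0.941 ± 0.0661 beside 1.30 ± 0.0186, in the rest of the gene 0.783 ± 0.118 beside 0.999 ± 0.0757, and in the 500 bp past the end 0.825 ± 0.0973 beside 1.07 ± 0.0248. These are medians over a small named list and were not tested against other lists. Within the transcribed part, exons had a higher mean signal than introns at 9 of the 10 genes, as at 86.6% of 21762 protein-coding genes with introns. The exception was AT5G65420, with 0.753 ± 0.116 in exons and 0.808 ± 0.170 in introns. At AT4G34160 exons had 1.86 ± 0.0190 and introns 1.29 ± 0.0694. Exons were richer in GC than introns at all 10 genes (41.3% and 35.4% at AT4G34160), and the part of this in the difference was not tested.

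**Figure D4:**
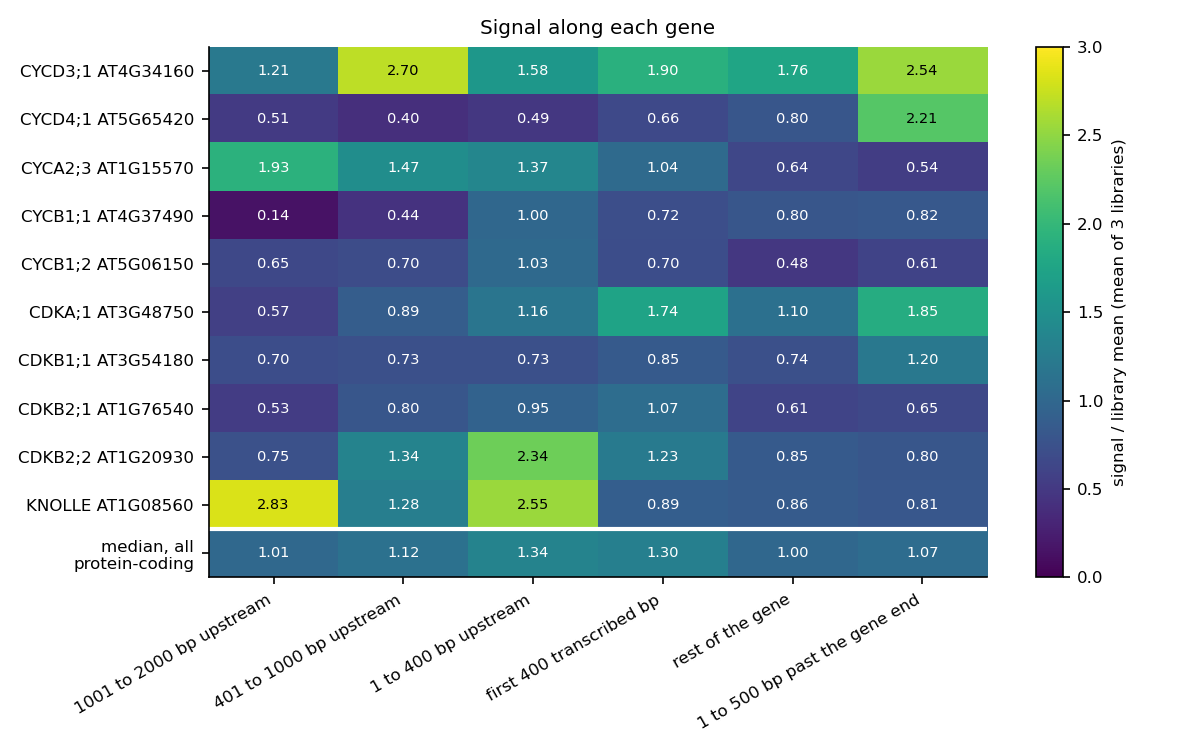
Mean signal of the 3 libraries in 6 regions of each gene, as a multiple of the library mean, with the median over all protein-coding genes in the bottom row. High values stand 400 to 1000 bp upstream and past the end of AT4G34160, past the end of AT5G65420, 1000 to 2000 bp upstream of AT1G15570 and KNOLLE, and 1 to 400 bp upstream of AT1G20930 and KNOLLE.

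Ordered by mean upstream signal, the genes ran KNOLLE, AT1G20930, AT4G34160, AT1G15570, AT3G48750, AT5G06150, AT4G37490, AT1G76540, AT3G54180 and AT5G65420. The first 4 and the last 2 kept their place in all 3 libraries. In the middle, AT3G48750 exceeded AT5G06150 in 1 library of 3, AT5G06150 exceeded AT4G37490 in 2, and AT4G37490 exceeded AT1G76540 in 1, so these neighbours cannot be separated. With 3 libraries a paired exact permutation test cannot fall below p = 0.25, so none was run. Library 2 gave the highest value at 7 of the 10 genes, and also at 63.8% of all protein-coding genes. The 3 genes at which it did not are AT5G06150, AT1G76540 and AT5G65420.

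The rest of the cell cycle machinery gives the setting. Of 80 other named cell cycle genes in 9 lists, 37 had a site of every library within 400 bp upstream, beside 33.5% of all protein-coding genes, and the median of their means over the 3 libraries was 1.40 times the library mean, beside 1.35. Of the other cyclins, 3 of 8 D cyclins, 2 of 9 A cyclins and 1 of 8 B cyclins had such a site, with medians of 0.862, 0.855 and 1.23. Among D cyclins CYCD1;1 was highest at 2.72 ± 0.516 (SD, n = 3) and CYCD6;1, which acts in the formative divisions of the root ground tissue, lowest at 0.407 ± 0.0921. Among A cyclins the extremes were CYCA1;2, known from meiosis, at 1.79 ± 0.348 and CYCA3;3 at 0.451 ± 0.0240. Among B cyclins they were CYCB2;2 at 1.85 ± 0.0908 and CYCB1;5 at 0.465 ± 0.0994.

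The other lists hold partners and regulators of the kinases. Such a site was found at 7 of 10 kinases and cofactors (median 1.38), 6 of 9 inhibitors (1.35) and 5 of 13 transcriptional regulators (1.53). Over all protein-coding genes the share was 33.5% and the median 1.35. KRP1, an inhibitor of cyclin-dependent kinases, had the highest signal of the 80 at 3.98, 5.55 and 3.82 times the mean in libraries 1, 2 and 3, and its relative KRP3 the lowest at 0.434, 0.322 and 0.364. CDKD;1, a kinase that activates other kinases of the cycle, had 3.18 ± 0.244. CDKF;1, which acts on the CDKD kinases, had 0.496 ± 0.0393, yet a site of every library reached into its upstream region. The repressor E2FC had 3.58 ± 0.605 and the E2F-like factor DEL2 0.513 ± 0.111.

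The genes that act at defined steps were uneven too. Among activators of the anaphase-promoting complex, 2 of 5 had such a site (median 1.05), from CCS52A2 at 2.29 ± 0.351 to CDC20.2 at 0.445 ± 0.0295. Replication genes of S phase had it in 6 of 9 (median 1.94), and the helicase subunits MCM7 and MCM5 marked the ends at 3.01 ± 0.405 and 0.600 ± 0.0824. Cytokinesis genes, which act with KNOLLE, had it in 5 of 9 and all 9 had a site of every library in the wider span, beside 33.5% and 64.2% of all protein-coding genes (median 1.81). There the kinesin TES was highest at 3.30 ± 0.287 and KEU, which binds KNOLLE, lowest at 1.40 ± 0.0727, though SYP112 was within its spread at 1.40 ± 0.185. KNOLLE itself lay above the median of this list and below TES in each library.

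**Figure D5:**
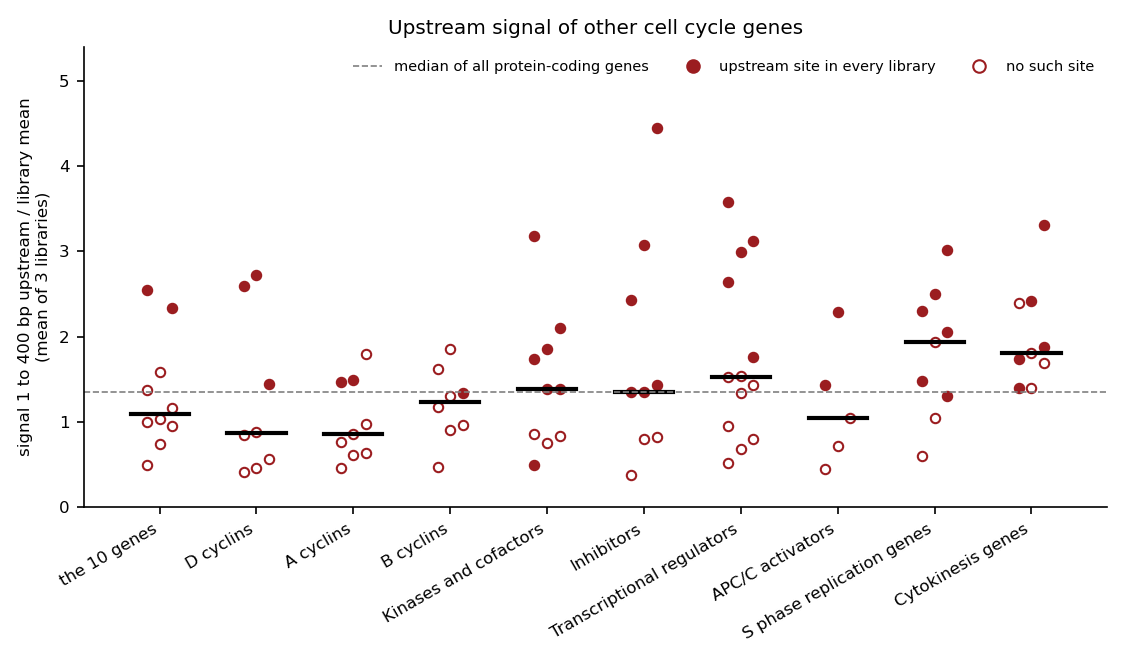
Mean upstream signal of the 3 libraries, as a multiple of the library mean, for each gene in 9 lists of other cell cycle genes beside the 10 genes, with filled points for genes that have a site of every library within 400 bp upstream. Black lines are medians, and the dashed line is the median of all protein-coding genes, 1.35. The lists of A, B and D cyclins lie mostly below it, and those of replication and cytokinesis genes mostly above it.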

How the data were processed

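Single-end reads of 61 bp were aligned by the authors to TAIR10 with bowtie, keeping reads with a single position, and duplicates were removed with SAMtools (versions not given in the sources used here). The authors deposited raw read counts over windows of 100 bp every 25 bp, leaving out windows at 0. They called peaks in each library alone with MACS2, shifting and extending reads by fixed lengths, and the deposited lists hold a score (not used), a ratio (fold enrichment at the summit) and p- and q-values as −log10 (lowest −log10 q 1.31). Whether the window counts used shifted reads was not stated, so their positions may be off by some bases. Windows not listed were counted as 0 and assigned by their centre. Counts were divided by the mean over the 5 nuclear chromosomes (119 Mb), and values are the mean ± SD of the 3 libraries. The libraries differ in depth and in the number of nuclei used, and the part of this in the SD was not tested. Reads were estimated as the sum of window counts over 6.27, 6.34 and 6.28 windows per read, and their Poisson intervals (95%) cover counting error only. Sites overlapping by 1 bp were merged. Starts, neighbours and sequences came from RefSeq TAIR10.1, whose chromosome lengths hold all windows. Coordinates are counted from 1. Proteins were translated from its coding sequences. Python 3.11.15 and NumPy 2.4.6 were used, and the signal and merging steps were tested on simulated data. With 1 group, no test between groups was made. The genes and lists were chosen with earlier results of these data known. In each list the highest and lowest gene are named, and also genes whose start is nearest to a site, while the genes that overlap or adjoin the upstream regions were named after their positions were seen. Of 83 listed genes, 3 were dropped because the annotation does not carry their name (CYCB2;5, CDKD;3 and KRP4). Alternatives were peak thresholds, overlap rules, upstream reach, scaling and leaving out each library.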

Additional observations from a re-analysis of the deposited data

How the results depend on the processing

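Under 131 alternatives, 92 values stayed within the spread of the libraries or, for counts, within 1.5 times. Most of these 92 came from leaving out 1 library, a weak check for the reason given below. With only sites of a −log10 q of at least 5, the merged sites at the 10 genes fell from 20 to 11, and the genes with an upstream site of every library from 2 to 1, losing KNOLLE, while the share of all protein-coding genes fell from 33.5% to 20.6%. The median upstream signal, 1.15 times the library mean, was 0.854 relative to the median promoter, 1.36 within 250 bp, 0.946 within 1000 bp and 1.38 over 200 bp on both sides of the start. The median percentile, 40.8, was 48.8 among all annotated genes, 47.4 within 250 bp and 32.4 within 1000 bp. The ratio of AT4G37490 to AT5G06150, 0.981, was 1.02 within 250 bp, 1.05 over 200 bp on both sides and 0.797 within 1000 bp, and from 0.892 to 1.05 when 1 library was left out, so it has no direction. That of AT1G76540 to AT1G20930 rose to 0.597 over 200 bp on both sides. Of 80 alternatives for single genes, 56 stayed within the spread, and most of these 56 likewise came from leaving out 1 library. KNOLLE was highest except within 1000 bp, where AT4G34160 was, and AT5G65420 was lowest throughout. Within 250 bp AT1G15570 (1.62) passed AT4G34160 (1.56), and over 200 bp on both sides AT3G48750 (1.79) passed AT1G20930 (1.71). The cause of these shifts was not tested. Leaving out 1 of 3 libraries shifts a mean by less than the spread almost by construction. No paired analysis was possible because the 3 libraries form 1 group, so that no groups share replicate numbers, and genes were compared as ratios within each library. Depth limits the upstream values: at AT5G65420 in library 2 an estimated 11.4 reads give an interval of 0.167 to 0.587.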
